A study of Homo sapiens with 4 samples.

Results

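The flag line of UACC-812, an established breast cancer cell line, gave 1 library from chromatin immunoprecipitation with sequencing (ChIP-seq) and 1 input library, and the called intervals of both are described here. All intervals of both libraries were taken: 161 from the ChIP library and 119 from the input, 280 of the 391 intervals in the series. An interval of one library was paired with an interval of the other where they overlapped by at least 1 bp on the same chromosome. Pairing gave 98 shared pairs, 63 ChIP intervals absent from the input list (ChIP-only) and 21 input intervals absent from the ChIP list (input-only), 182 distinct places in all.

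The labels name the cells only as a flag cell line of breast tissue, and the sources used here do not say what construct they carry or whether they are 1 clone. Cells were fixed with formaldehyde before the nuclei were isolated, and c-MYC is the antibody that the labels name for the ChIP library. An RNA polymerase II antibody is named for the library titled input, and the title was followed. The other line of the series overexpresses c-MYC, and its 25 ChIP and 86 input intervals serve here only to say whether a flag line interval was listed there too. With 1 library a group there were no replicates, no difference between the libraries was tested, and every interval around a share is an exact Clopper-Pearson 95% interval that covers counting error only.

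c-MYC is a transcription factor that pairs with MAX and binds the E-box, a short DNA motif with the core CACGTG, mostly near the starts of active genes. In ChIP-seq an antibody draws down the DNA bound by such a protein, and reads pile up where it sat. Input chromatin normally skips the antibody, so that places that collect reads without it can be seen. Whether that holds for the library titled input is uncertain, given the antibody in its label, and if the label is right the lists compare DNA drawn down by 2 antibodies.

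Sequence could be shown for 3 places, taken from RefSeq on GRCh38.p14, because they lie in an annotated promoter window or hold an annotated microRNA. The first is the promoter window of LOC115308161 (chr6:156778469-156778768, minus strand, 250 bases before to 50 after the start), which meets the ChIP-only interval nearest AL355297.4 inside ARID1B. The second is the window of LOC101928626 (chr1:628960-629259, minus strand), which meets the shared interval nearest MTND2P28, a nuclear copy of a mitochondrial gene. Capitals mark the bases covered by the ChIP interval, 80 in the first and 177 in the second. The last is the mature microRNA hsa-miR-4485-3p of MIR4485 on chromosome 11 (minus strand), with its seed, bases 2 to 8, in capitals.
LOC115308161 promoter: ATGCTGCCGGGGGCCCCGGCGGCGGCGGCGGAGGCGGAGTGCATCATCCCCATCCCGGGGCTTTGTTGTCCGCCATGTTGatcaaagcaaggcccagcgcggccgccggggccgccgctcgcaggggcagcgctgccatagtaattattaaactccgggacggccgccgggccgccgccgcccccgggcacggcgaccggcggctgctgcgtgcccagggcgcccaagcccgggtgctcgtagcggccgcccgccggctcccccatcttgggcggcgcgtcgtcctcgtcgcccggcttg
LOC101928626 promoter: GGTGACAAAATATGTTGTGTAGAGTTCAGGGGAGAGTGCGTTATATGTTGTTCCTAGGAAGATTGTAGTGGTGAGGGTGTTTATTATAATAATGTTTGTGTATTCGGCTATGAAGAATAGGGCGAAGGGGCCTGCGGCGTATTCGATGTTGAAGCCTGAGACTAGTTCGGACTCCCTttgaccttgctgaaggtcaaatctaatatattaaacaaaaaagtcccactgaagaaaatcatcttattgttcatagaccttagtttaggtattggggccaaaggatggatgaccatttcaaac
hsa-miR-4485-3p: uAACGGCCgcgguacccuaa
The first window was 75.7% G and C and the second 40.7%. Neither held CACGTG or the wider CANNTG, both of which read the same on either strand, and CANNTG also takes in every CACGTG. Of 35116 RefSeq promoter windows of 300 bases, 2548 held CACGTG (7.26%) and 24117 held CANNTG (68.7%). The absence says only that these letters are not in these windows. No other promoter window in the table met a flag line interval, so 2 of the 182 places could be read in this way.

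Among the flag line ChIP intervals, 63 of 161 were ChIP-only (39.1%, 95% interval 31.5 to 47.1%). Among the input intervals, 21 of 119 were input-only (17.6%, 95% interval 11.3 to 25.7%). The shared pairs made up 60.9% of the ChIP list and 82.4% of the input list. Keeping only pileups of 20 and above in each list before pairing turned the order. Then 10 of 62 ChIP intervals (16.1%) were ChIP-only and 23 of 75 input intervals (30.7%) were input-only. An interval whose partner had a pileup below 20 counts there as unshared. Pileups are unscaled, so the same cutoff need not be equally strict in both lists, and the turned order cannot be read as a difference between them. The median distance from an input-only interval to the nearest ChIP interval was 4.19 Mb, and from a ChIP-only interval to the nearest input interval 8.59 Mb. Both lists are sparse, so distances of this size do not set these intervals apart. Only 7 of the 63 ChIP-only intervals had an input interval within 100 kb, and 0 had one within 1 kb, the nearest being 2403 bp away.

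The ChIP-only intervals were low. The pileup, the deposited number of overlapping fragments at the summit of an interval, had a median of 13 over the 63 ChIP-only intervals, with quartiles of 11.5 and 15. In the same library the 98 shared intervals had a median of 22, with quartiles of 16.2 and 33. A pileup of at least 20 was reached by 8 of 63 ChIP-only intervals (12.7%) and by 54 of 98 shared ones (55.1%). The ranges overlapped, from 8 to 47 in the ChIP-only and from 10 to 509 in the shared intervals. The lowest pileup listed was 8 in the ChIP library and 11 in the input, and 7 of 63 ChIP-only intervals stood below 11. The authors' fold over the caller's background had medians of 8.37 and 10.4, and the -log10 q medians of 8.44 and 15.2, in ChIP-only and shared intervals of the ChIP list.

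**Figure D1:**
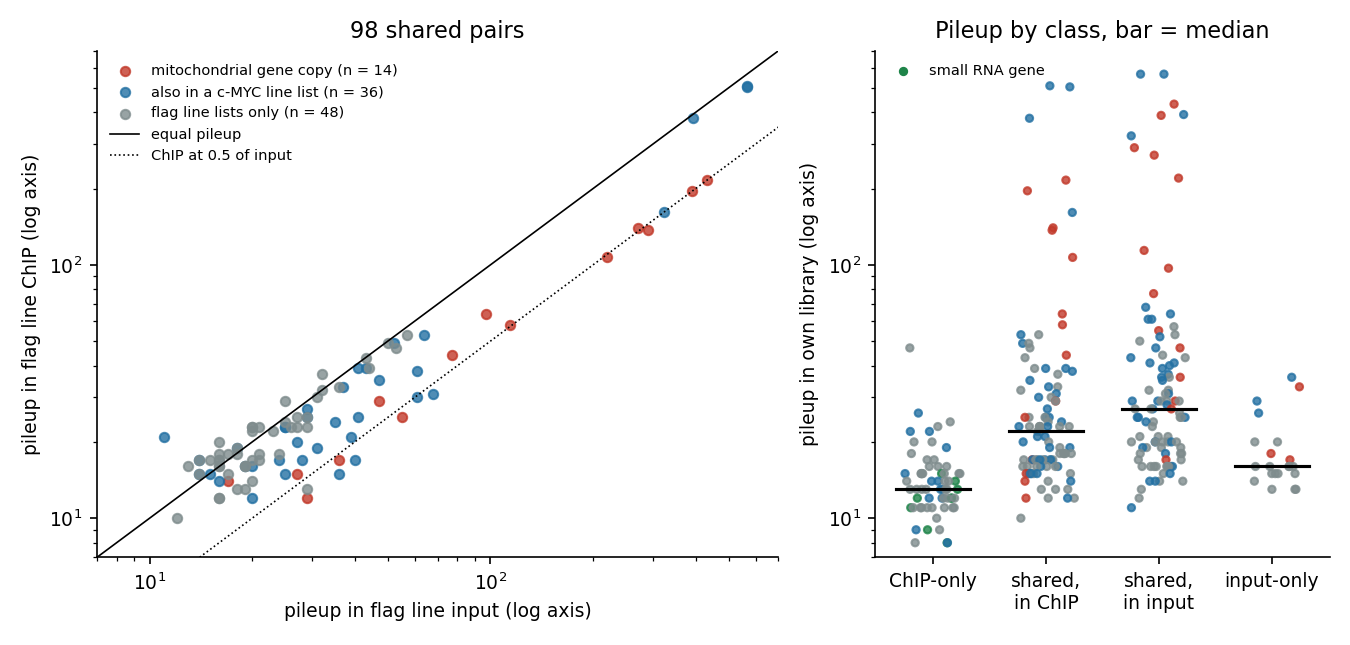
Left, the deposited pileup of each of the 98 shared pairs in the flag line ChIP library against the input (both log axes), with lines at equal pileup and at a ratio of 0.5. Right, the pileup of each interval in its own library on a log axis by class, with bars at the medians of 13 (ChIP-only), 22 (shared, in ChIP), 27 (shared, in input) and 16 (input-only); colours give the class of place.

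ChIP-only intervals were also short. Their median width was 285 bp, against 453 bp for shared intervals in the same list. The shortest width of the ChIP list, 255 bp, was held by 16 of 63 ChIP-only intervals (25.4%) and by 2 of 98 shared ones (2.04%). The input list showed the same split, with 9 of 21 input-only intervals at its shortest width of 283 bp (42.9%) and 5 of 98 shared ones. Widths fell into a short and a long set in each list, as the plot of widths shows. Width and pileup come from the same fragments, so the shortness and the lowness of an interval are not separate observations.

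**Figure D2:**
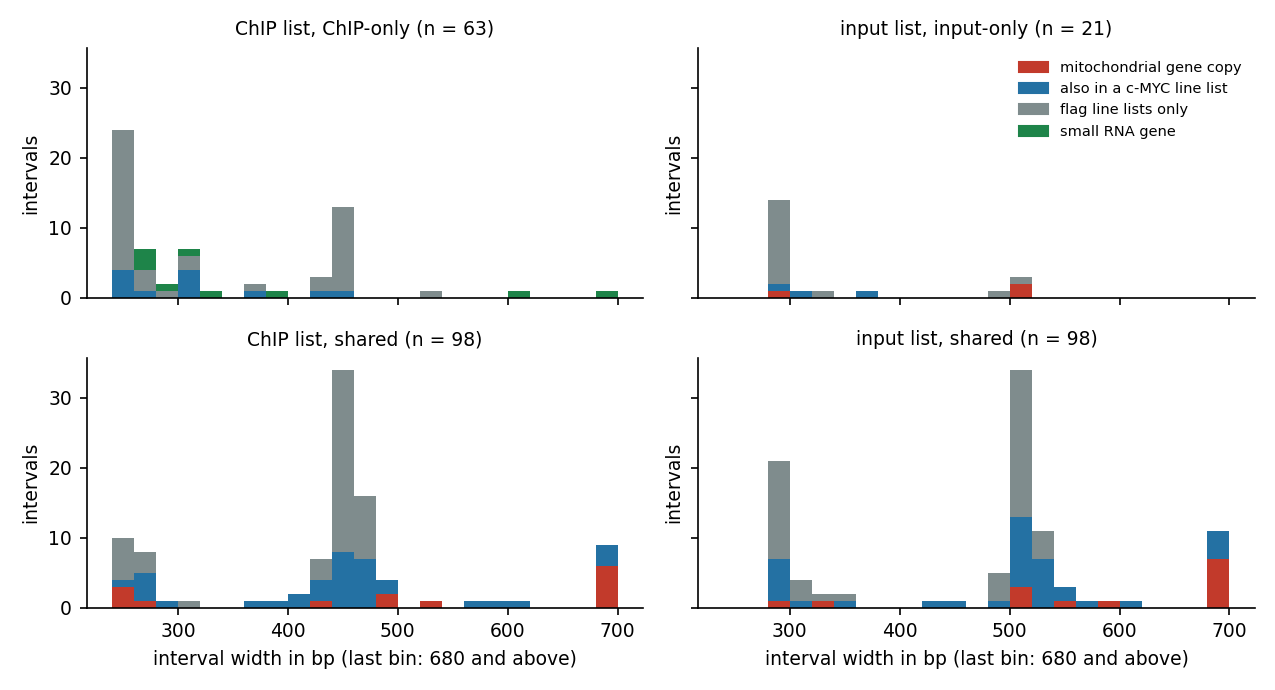
Number of intervals by width in bp (bins of 20 bp, the last holding all wider intervals) for ChIP-only, shared and input-only intervals, each in its own list and coloured by class of place. ChIP-only intervals crowd at the shortest width of 255 bp with a smaller set near 450 bp, while the shared intervals of the ChIP list have a median of 453 bp.

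The highest ChIP-only interval lay in SOX2, which encodes a transcription factor of stem and neural progenitor cells. It covered 537 bp of the SOX2 exon at chr3:181712479-181713015, within the overlapping lncRNA gene SOX2-OT as well. Its pileup of 47 stood apart from the next, 26, and its -log10 q of 37.8 was the highest of the 63. The nearest input interval was 5.53 Mb away, and no c-MYC line list held the place. SOX2 was the one gene of 8 stem cell factors with a flag line ChIP interval in its body or within 5 kb, and none of the 8 had an input interval. That list was chosen with earlier results of these data known. No share over all genes stands beside the count, so it says nothing about stem cell factors as a set.

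After SOX2 the 14 next highest ChIP-only intervals lay mostly between or within non-coding genes. DUX4L16, a copy of the DUX4 homeobox gene, was the nearest gene at 26, and the pseudogene AC092989.1, 203684 bp away, at 24. UNC45B, which encodes a myosin chaperone, held an intronic interval with a pileup of 23 at chr17:35151100-35151544, 3058 bp from its start. UNC45B was the only other coding gene besides SOX2 that both held one of these 15 intervals and was its nearest gene. Pileups of 22 were nearest a 5_8S_rRNA copy on chromosome 14 and nearest AC022616.5. Intronic intervals at 20 lay in the lncRNA genes LINC01499 and AL589740.1. The remaining 7 ran from 19 at ABBA01006766.2 down through LINC01519 at 18 and SMIM10 and AL590617.1 (inside NHSL1) at 17 to XKR4, TMEM47 and LINC00437 at 16. Of these 15 intervals, 4 were also in the c-MYC line input: those nearest DUX4L16, the 5_8S_rRNA copy, AC022616.5 and ABBA01006766.2.

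Few ChIP-only intervals were at the start of a coding or lncRNA gene. Within 1 kb of such a start (TSS, transcription start site) lay 5 of 63 ChIP-only intervals (7.94%, 95% interval 2.63 to 17.6%), 2 of 98 shared ones (2.04%) and 3 of 21 input-only ones (14.3%). The input-only 3 were at AMY2A and at MTRNR2L8 and MTRNR2L12, mitochondrial copies that the files annotate as coding. The ChIP-only 5 were at SOX2, 823 bp from the TSS, and at REXO4, CDH11, AL355297.4 and BX284668.6. The REXO4 interval, with a pileup of 15 at chr9:133417160-133417414, lay 667 bp into that exonuclease gene and also inside ADAMTS13, the gene of a blood clotting protease. The CDH11 interval (chr16:64998581-64998849, pileup 11) was 86 bp upstream of a TSS deep inside this mesenchymal cadherin gene, which RefSeq runs from 64943753 to 65123744. A shared CDH11 interval, 47 in ChIP and 53 in input, lay just outside the RefSeq gene at chr16:65124558-65125024. In the ChIP list it is annotated promoter-TSS, 499 bp upstream of a CDH11 TSS, and it is among the 2 shared intervals counted above. AL355297.4 had a pileup of 12 at chr6:156778689-156778943, inside ARID1B, which encodes a subunit of the BAF chromatin remodelling complex. BX284668.6 had a pileup of 8, the lowest in the list. Apart from SOX2, these pileups of 8 to 15 were within the range of the bulk of ChIP-only intervals.

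Counting genes of every class, 15 of 63 ChIP-only intervals lay within 1 kb of a TSS (23.8%, 95% interval 14.0 to 36.2%), and 9 of these 15 were at small RNA genes. A further 5 were the coding and lncRNA genes above, and the last was at AC109326.1, an unclassified transcript. Among shared intervals 17 of 98 were within 1 kb of a TSS (17.3%), and 12 of the 17 were at mitochondrial gene copies by nearest gene name. Those nearest AL669831.3, MIR4485 and AC132825.6, also among the 17, overlap such copies in RefSeq. The classes of place used from here on, small RNA gene, mitochondrial gene copy, listed also in the c-MYC line and flag line only, were drawn up after the values had been seen.

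Genes of small nuclear and small nucleolar RNAs, called small RNA genes here, had an interval within 1 kb of their start in the flag line ChIP list and none in the flag line input list. Small nuclear RNAs (snRNAs) include the RNA parts of the spliceosome, which removes introns. U5 serves both the major and the minor spliceosome, U11 and U4atac only the minor one, and the small nucleolar RNA (snoRNA) U8, from SNORD118, is needed to process ribosomal RNA. All 9 intervals were ChIP-only, against 39.1% of the ChIP list, and none of the 9 was in either c-MYC line list. Most intervals were absent there too: 63.4% of the ChIP list and 81.0% of ChIP-only intervals were in neither c-MYC line list. The nearest input interval was at least 5.51 Mb away from each, beside a median of 8.59 Mb over all ChIP-only intervals.

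RNU5A-8P, by name a U5 pseudogene, had the highest pileup of the 9, 15, at chr1:210373965-210374249. The U5 gene RNU5D-1 followed with 14 at chr1:44730848-44731229. Its neighbour RNU5F-1 had 12 over 714 bp at chr1:44721211-44721924, the widest ChIP-only interval. The remaining U5 genes were lower. RNU5E-1 had 11 at chr1:11908251-11908558, and RNU5A-1 had 8 at chr15:65296349-65296626. Of the 5 U5 genes in RefSeq, 4 had a flag line ChIP interval within 500 bp, all but RNU5B-1, as had 1 of 29 U5 pseudogenes.

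In the minor spliceosome, RNU4ATAC had a pileup of 13 at chr2:121530864-121531125 and RNU11 had 12 over 603 bp at chr1:28648549-28649151. RNU12 and RNU6ATAC, the other minor spliceosome genes, had no interval. SNORD118 had 12 at chr17:8173212-8173472, and RNVU1-6, a variant U1 gene, had 9 at chr1:146051746-146052082. Over RefSeq as a whole, 7 of 156 snRNA genes and 1 of 1199 snoRNA genes had a flag line ChIP interval within 500 bp. In each of the other 3 lists the number was 0 of 156 and 0 of 1199. Counts for close copies are uncertain, since the sources used here do not say how reads with several matches were placed.

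These 9 intervals were weak ones by the values of their list. Their pileups of 8 to 15 had a median of 12, and their folds, from 5.66 to 7.93, a median of 6.62, below the 8.37 of all ChIP-only intervals. The lowest -log10 q of the 9 was 3.24 at RNU5A-1 and the highest 8.03 at RNU5D-1. At RNU5A-1 and RNVU1-6 the pileup was under 11, the lowest that the input list holds. A difference between the lists in what reached the caller's threshold cannot be told apart from a difference in fragments at such pileups.

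The intervals leaned to the downstream side of these genes. All 9 reached past the end of the gene, while 4 of 9 began upstream of it. The summit lay past the gene end in 6 of 9, by 45 bp at RNU5D-1, 96 bp at SNORD118, 219 bp at RNU5E-1, 233 bp at RNVU1-6, 278 bp at RNU5A-1 and 395 bp at RNU5F-1. It lay inside the gene in the other 3: RNU5A-8P, RNU4ATAC and RNU11. The genes are 114 to 164 bp long, and the interval at RNU5A-1 did not touch its gene. A second interval near RNU11, with a pileup of 15 at chr1:28654443-28654712, was 5977 bp from its start and is not among the 9.

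**Figure D3:**
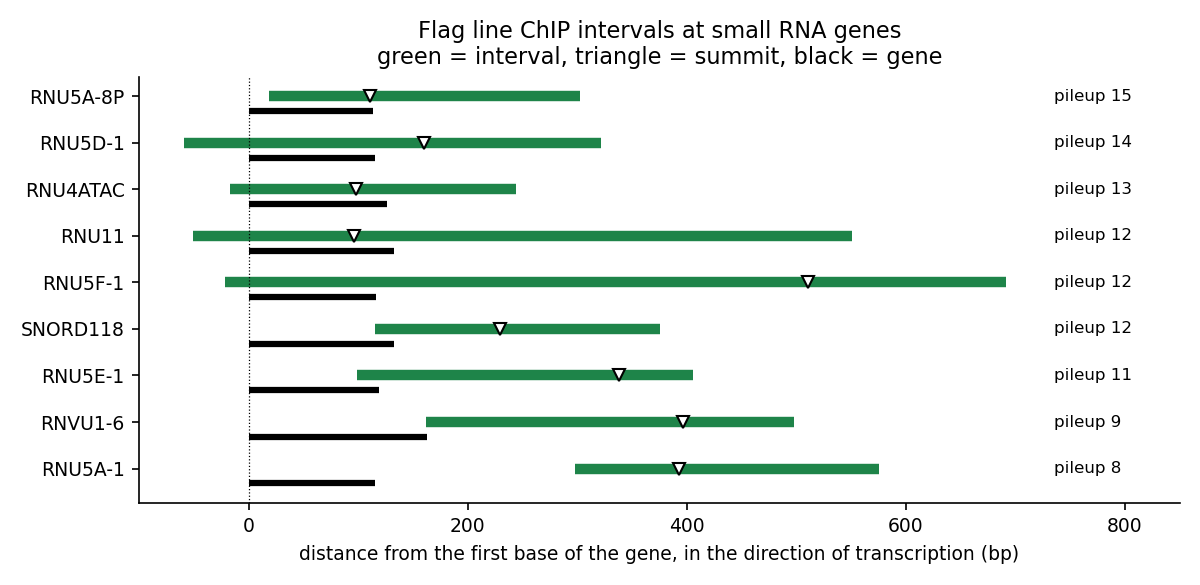
The 9 flag line ChIP intervals (green) at small RNA genes (black), placed by distance in bp from the first base of each gene in the direction of transcription, with a triangle at the summit and the deposited pileup at the right. All 9 intervals reach past the gene end and 6 of 9 summits lie beyond it.

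Coding genes were nearest in 28.6% of ChIP-only (18 of 63), shared (28 of 98) and input-only intervals (6 of 21), and lncRNA genes in 14.3% of each. Pseudogenes were nearest in 18 of 63 ChIP-only (28.6%), 41 of 98 shared (41.8%) and 8 of 21 input-only intervals (38.1%). By place, 28 of 63 ChIP-only intervals were intergenic (44.4%), against 52 of 98 shared (53.1%) and 15 of 21 input-only ones (71.4%). A RefSeq coding gene held 24 of 63 ChIP-only intervals (38.1%, 95% interval 26.1 to 51.2%), 27 of 98 shared (27.6%) and 1 of 21 input-only ones (4.76%, 95% interval 0.12 to 23.8%). That 1 was at AMY2A, the gene of pancreatic amylase. Outside the small RNA genes, ChIP-only intervals inside coding genes included ULK4 (pileup 13), ZNF385B (15), NAALADL2 (15) and RPA3 (11), which encodes a subunit of the single-strand DNA binding complex RPA. All 4 were intronic.

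**Figure D4:**
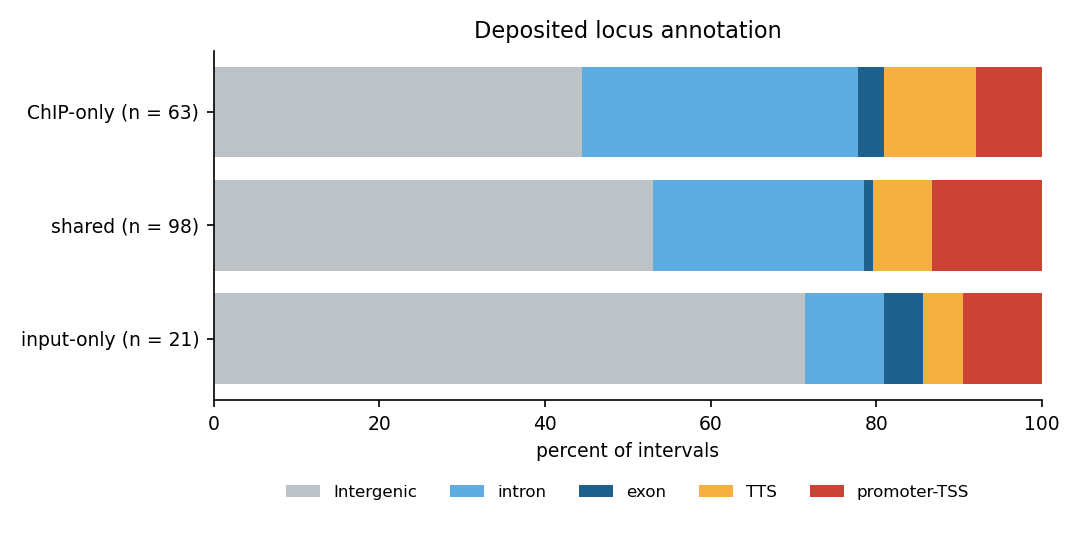
Share of intervals, in percent, by the deposited locus annotation for the 63 ChIP-only, 98 shared and 21 input-only intervals. Intergenic intervals make up 44.4%, 53.1% and 71.4% in that order, and TTS (transcript end) and promoter-TSS are the annotation's own classes.

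The ChIP-only share was lower at places that the c-MYC line lists also held. Of the 48 flag line ChIP intervals that the c-MYC line lists also held, leaving out mitochondrial gene copies by nearest gene name, 12 were ChIP-only (25%). Of the 90 in neither c-MYC line list and at no small RNA gene, 42 were ChIP-only (46.7%), and of the 14 at mitochondrial gene copies 0 were. These stand beside 39.1% for all 161. Among the 48, 5 shared intervals overlap a mitochondrial copy in RefSeq. By name or overlap, 19 ChIP intervals were at copies, and 0 of them were ChIP-only. Over the 63 ChIP-only intervals, the c-MYC line input held 12, and its ChIP list held 1 of these, that nearest ABBA01006766.2. So 51 of 63 (81.0%) stood in no list but this one, as did 17 of 21 input-only intervals in theirs (81.0%). Over the whole lists, 102 of 161 ChIP intervals (63.4%) and 68 of 119 input intervals (57.1%) were in neither c-MYC line list. Among the flag line only places, 15 of 42 ChIP-only intervals were at least 400 bp wide (35.7%), against 38 of 48 shared ones (79.2%).

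In the shared pairs the input was mostly the higher of the libraries. The ratio of ChIP to input pileup had a median of 0.862 over the 98 pairs, with quartiles of 0.632 and 1.00 and a range from 0.414 to 1.91. ChIP was above input in 20 of 98 pairs and level with it in 6. The input pileup was at least 1.5 times the ChIP pileup in 26 of 98 pairs (26.5%), and the reverse held in 1 (1.02%). The deposited pileups are unscaled as far as the headers say and the depth of each library is unknown, so a ratio below 1 does not say that a place held less DNA in the ChIP library. Only the order of places within the pair of libraries can be read.

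Relative to the other pairs, mitochondrial gene copies had the lowest ratios. At the 14 mitochondrial gene copies the median ratio was 0.506 (log2 -0.98), and input was at least 1.5 times ChIP in 13 of 14, against 26.5% of all pairs. At the 36 pairs also listed in the c-MYC line it was 0.835 (log2 -0.26), with 12 of 36 past 1.5 times (33.3%). These 36 were sorted by nearest gene name, and 5 of them overlap a mitochondrial copy in RefSeq: AL669831.3, MIR4485, MLPH, AC132825.6 and AL512658.1, all 5 past 1.5 times. Without them the median was 0.875 over 31 pairs, with 7 past 1.5 times (22.6%), and with them the copies had a median of 0.501 over 19, with 18 past it. At the 48 pairs in the flag line alone it was 0.958 (log2 -0.06), with 1 of 48 past 1.5 times (2.08%), that nearest CDY3P. ChIP stood above input in 0 of 14, 4 of 36 and 16 of 48 pairs in that order. The ranges overlapped, at 0.414 to 0.824, 0.417 to 1.91 and 0.448 to 1.25.

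**Figure D5:**
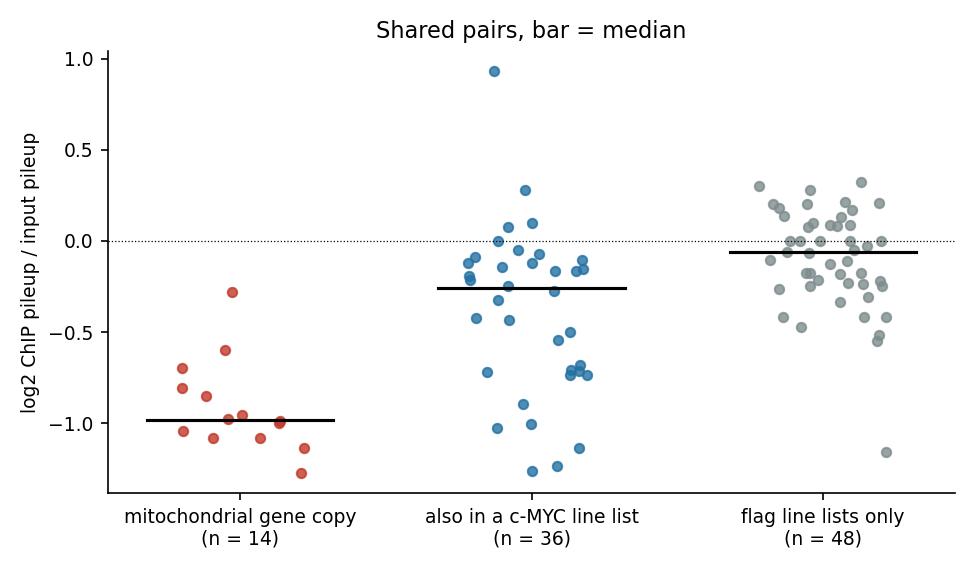
The log2 ratio of ChIP to input pileup in the flag line for each of the 98 shared pairs, by class of place, with a bar at the median and a dotted line at equal pileup. The medians are -0.98 at mitochondrial gene copies, -0.26 at pairs also in a c-MYC line list and -0.06 at pairs in the flag line lists only.

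The 10 shared pairs of highest ChIP pileup held both kinds of ratio. In MYC, the gene of c-MYC itself, pileups were 509 and 504 in ChIP and 566 and 566 in input at its pair of intervals, ratios of 0.899 and 0.890. At the intergenic place nearest RNU6-488P (chr3:93470195-93470954) they were 379 and 392, so that these 3 pairs were nearly level. The other 7 were at or beside mitochondrial gene copies. MTCO3P12 had 216 in ChIP and 431 in input, MTND2P28, whose promoter window is printed above, 196 and 389, and MTND4LP30 137 and 290. MTND5P11 had 140 and 271 at one interval and 107 and 220 at another. The interval nearest AL669831.3, which overlaps the copy MTCO2P12, had 161 and 323. The interval nearest MTRNR2L1, a humanin-like gene, had 64 and 97, the smallest gap of these 7.

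The lowest ratios were at places of moderate pileup. MTND2P18 had 12 in ChIP and 29 in input (0.414), and the interval nearest AL512658.1, which overlaps NMTRV-TAC1-1, a nuclear mitochondrial tRNA copy, had 15 and 36 (0.417). An intron of MLPH, which encodes a melanosome transport adaptor and is a luminal breast marker, had 17 and 40 (0.425), and the interval there overlaps the mitochondrial copy MTND5P46. CDY3P had 13 and 29, MTND4P24 25 and 55, and AC090531.1, inside PDZRN4, 31 and 68. By name or overlap, 4 of the 6 lowest were at mitochondrial copies, and 2, nearest CDY3P and AC090531.1, were not. PYY had 25 and 41 in an intron (0.610). MTCO1P6 was the exception among the copies, at 14 and 17 (0.824).

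At MIR4485 the lists differed in extent. Its pair of intervals had a pileup of 30 in ChIP and 61 in input (0.492). The input interval ran from 10507712 to 10508394 on chromosome 11 and took in the whole microRNA hairpin at 10508270 to 10508326. The ChIP interval ended at 10508200, 70 bp short of the hairpin, so the printed microRNA lay in the input interval and not in the ChIP one. Mitochondrial copies lay close by, among them the input-only interval at MTRNR2L8.

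The highest ratio, 1.91, was nearest RNA5-8SN5, a gene of 5.8S ribosomal RNA, with 21 in ChIP and 11 in input at chr21:8219942-8220357. The next was far lower: NPSR1, a neuropeptide receptor gene whose antisense gene NPSR1-AS1 holds the interval, had 20 and 16 (1.25). AL391358.1 had 16 and 13, AC128676.1 and AC124242.2 each 17 and 14, and ZFYVE16, an endosomal protein gene, 29 and 25. At pileups this low a gap of 3 or 4 fragments makes such a ratio. A ChIP-only interval with a pileup of 13 also lay in ribosomal RNA genes of chromosome 21, overlapping RNA45SN1 and RNA28SN1, and the c-MYC line input held it.

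Intronic pairs in coding genes listed in the flag line alone included several that were close to level. XPC, which encodes a DNA damage sensor, had 25 in ChIP and 27 in input. MTAP, a methionine salvage enzyme gene, had 17 and 16. NOP58, a core protein of box C/D snoRNAs and the one gene of 28 listed MYC targets with an interval, had 22 and 23. These genes, PYY and MTCO1P6, and the coding genes of the ChIP-only intervals above, were picked after their values were seen, as were the other features named below and the ribosomal RNA genes. Of 20 genes of the MYC network only MYC had an interval, of 14 luminal breast genes only MLPH, and of 11 basal and mesenchymal genes only CDH11, each in both lists. These gene lists were also chosen with earlier results known and have no share over all genes beside them. Their counts say nothing about the genes as sets.

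Shared pairs coincided closely in position. Summits were a median of 3 bp apart, and 88 of 98 pairs had them within 50 bp. Among pairs in the flag line alone 38 of 48 had summits no more than 3 bp apart (79.2%), beside 58 of all 98 pairs (59.2%). The ChIP interval lay wholly inside the input interval in 70 of 98 pairs, and its width was a median of 0.894 of the input width. Most shared pairs thus marked nearly the same spot, though summits were up to 517 bp apart and overlaps as small as 62 bp. The ChIP intervals were mostly the narrower ones. The shortest width also differed between the lists, 255 bp in ChIP and 283 bp in input, so this narrowness cannot be told apart from a difference between whole lists.

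The 21 input-only intervals were low as well, with a median pileup of 16, against 27 for shared intervals in the input list. ANKRD26P1 was the nearest gene of the highest, 36, followed by MTRNR2L8 at 33 (chr11:10508999-10509281), EMB at 29 and IGKV2D-40 at 26. PABPC1P8 and AC073308.1 stood at 20, the mitochondrial copies MTCYBP38 and MTRNR2L12 at 18 and 17, and 5 intervals at 16, nearest MTHFD2P4, ZPLD1, LINC01746, LINC01515 and AC007106.1. The 3 within 1 kb of a coding TSS were MTRNR2L8 (49 bp), MTRNR2L12 (397 bp) and AMY2A (499 bp upstream, pileup 13). Both MTRNR2L genes are mitochondrial copies that the files annotate as coding. Of the 21, 4 were also in the c-MYC line input: ANKRD26P1, EMB, IGKV2D-40 and MTRNR2L12.

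Most places stood alone along the chromosomes. Flag line intervals within 100 kb of each other formed 157 groups, of which 140 were single places, and 52 of these were ChIP-only. The share was similar over all 182 distinct places, of which 63 were ChIP-only, so standing alone does not set them apart. On chromosome 16, a pair of ChIP-only intervals, each with a pileup of 14, flanked a shared interval nearest FP325313.1 with 35 in ChIP and 47 in input, all between 34572868 and 34594919. Of the genes that the series title names or the line is known for, TINCR had its nearest flag line ChIP interval 40.9 Mb away and EGFR 7.14 Mb. ERBB2, the receptor gene amplified in this line, had its nearest 3.63 Mb away in ChIP and 4.27 Mb in input. A place missing from a list of called intervals can still have been bound.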

How the data were processed

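Formaldehyde fixation and an Illumina DNA kit are given per the labels' protocols. Tools named in the submitters' processing notes are MACS2 2.1.1, Bowtie2 2.3.0, cutadapt 1.19 and CASAVA 1.4, with the build GRCh38 (hg38). The sources used here do not give the peak threshold or say whether a control library entered the calling. Per the file headers, the deposited signal is the pileup at the summit, the fold is a ratio over the caller's background, and the -log10 values are those of p and q. For all 280 flag line intervals, 10 times the -log10 q without its decimals equalled the deposited score. Pileups carry no stated scaling, so the depth is unknown, and fold and q only describe intervals within a list.

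Intervals were paired in Python 3.11.15 with pandas 2.3.3, and the pairing was tested on simulated data. Coordinates are 1-based. Of 162 nearest gene names, 106 matched a RefSeq symbol of GRCh38.p14. Named were the 15 ChIP-only and 10 input-only intervals of highest pileup (with ties), all within 1 kb of a coding or lncRNA TSS, the 10 highest shared pairs, the 6 highest and 6 lowest ratios, MYC, TINCR, EGFR, ERBB2 and members of 5 gene lists. Members, lists and rules were chosen with earlier results of these data known. The small RNA genes were named as a class after their values were seen. Alternatives were other overlaps, q, fold and pileup minimums, merging, TSS windows and leaving out mitochondrial copies.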

Additional observations from a re-analysis of the deposited data

Results flagged for a closer look

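Of 24 regions listed in all 4 libraries, 21 had a lower pileup in ChIP than in input in both lines, and 3 went opposite ways in the flag line and the c-MYC line, which is what singled them out. Pileups are unscaled, so the sign of a ratio depends on the unknown depths: the median log2 ratio over the 24 was -0.55 in the flag line and -1.43 in the c-MYC line, and both MYC intervals lay above it in each line. With 1 library per group the difference between the lines was not tested. At the MYC interval that starts at 127738135, the log2 ratio of ChIP to input pileup was -0.15 in the flag line and 1.87 in the c-MYC line. Pileups there were 509 in ChIP and 566 in input in the flag line, and 596 and 163 in the c-MYC line. At the MYC interval that starts at 127740288, the log2 ratio was -0.17 in the flag line and 1.99 in the c-MYC line. Pileups were 504 in ChIP and 566 in input in the flag line, and 581 and 146 in the c-MYC line. At both MYC intervals the deposited ChIP pileups were thus closer between the lines than the input pileups. The region nearest RNA5-8SN5 that starts at 8219942 went the other way in sign, at 0.93 in the flag line and -1.38 in the c-MYC line. It rests on low pileups, 21 in ChIP and 11 in input in the flag line, and 10 and 26 in the c-MYC line. This region also lay above the median of the 24 in each line, only slightly so in the c-MYC line.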

How the results depend on the processing

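Keeping pileups of 20 and above (62 ChIP and 75 input intervals) gave 52 shared, 10 ChIP-only and 23 input-only intervals. The input list then had the larger unshared part (30.7% against 16.1%). The cutoff came before pairing, so intervals whose partner fell below 20 are among the unshared ones. With the full lists paired, 8 ChIP-only intervals had a pileup of at least 20. A fold of at least 8 in both lists, chosen after seeing the data, left 36 ChIP-only intervals (with 77 shared pairs and 15 input-only intervals) and none of the 9 at small RNA genes. Within 1 kb of a TSS, the 15 ChIP-only intervals became 3 with protein coding genes only and 5 with coding and lncRNA genes (the latter chosen after seeing the data), since fewer genes count. Under the other settings run (reciprocal overlap of 50%, summit inside, gaps of 1 kb and, added later, 10 kb, fold of at least 5, without mitochondrial copies, merged within 10 kb, absent also from the c-MYC line input), shared pairs numbered 84 to 100, ChIP-only intervals 51 to 69 and input-only ones 18 to 27. A q of at most 0.01 removed nothing, as the lowest -log10 q was 3.10. The median ratio stayed between 0.862 and 0.891, or 0.907 without mitochondrial copies by name or overlap (added later), the median ChIP-only pileup at 13 or 14, also without SOX2, and the median ChIP-only width at 278 or 285 bp. TSS windows of 500 bp and 5 kb gave 12 and 22. The depth of the libraries is unknown, so a place near the lowest listed pileup, 8 in ChIP and 11 in input, may be missing from a list without differing between the libraries.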
